A study of Mus musculus with 8 samples.

Results

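The genes described here are 9 nuclear receptor genes and the prolactin receptor gene of the mouse, namely Vdr, Nr1h4, Ppara, Ppard, Pparg, Rxra, Nr3c1, Nr5a2, Esrra and Prlr. They were taken by name, after matching gene identifiers to symbols, and are 10 of the 54532 genes counted. All 10 were present in the count table and all 10 passed the filter on low counts that left 9971 genes for testing. The libraries came from mouse small intestinal organoids, which are epithelial structures grown from isolated crypts in Matrigel without stroma or immune cells. One group of 4 libraries was the control and 1 group of 4 was treated with RANKL, the ligand of the receptor RANK, and the comparison asks how RANKL changes gene expression in the epithelium. Organoids in the study were cultured in a medium with EGF, NOGGIN and R-spondin, which both groups shared, and its mouse lines were kept on a C57BL/6J background. The dose and duration of RANKL, and the age and genotype of the donor mice, are not given for these libraries in the sources used here.

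Nuclear receptors are transcription factors that bind DNA through a pair of zinc fingers, and most of them are switched by a small lipophilic ligand. RXR proteins are the shared partners: the vitamin D receptor (VDR, gene Vdr), the bile acid receptor FXR (gene Nr1h4) and the fatty acid sensing PPARs bind DNA mainly as dimers with RXR, whereas the glucocorticoid receptor (gene Nr3c1) acts as a homodimer and LRH-1 (gene Nr5a2) and ERRα (gene Esrra) can bind as monomers. In the intestine VDR controls calcium uptake, FXR controls the response to bile acids, PPARα controls fatty acid oxidation, and LRH-1 acts in crypt cells and in sterol handling. The prolactin receptor (gene Prlr) is not a nuclear receptor but a cytokine receptor of the plasma membrane that signals through the kinase JAK2 and the transcription factor STAT5, and it receives prolactin and placental lactogens, the hormones of pregnancy and lactation.

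A part of the DNA binding domain of these receptors is shown first, because that domain defines the family. The sequences below are the coding bases of the first zinc finger, from the first to past the last of its 4 cysteine codons, found by a pattern search in GENCODE M21 transcripts of GRCm38. The 6 codons in capitals encode the P box, the stretch that contacts the receptor motif in DNA.
Vdr: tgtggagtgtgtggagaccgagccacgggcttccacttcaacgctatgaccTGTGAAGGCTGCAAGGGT
Nr1h4: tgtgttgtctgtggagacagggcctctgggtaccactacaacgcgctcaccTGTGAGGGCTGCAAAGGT
Ppara: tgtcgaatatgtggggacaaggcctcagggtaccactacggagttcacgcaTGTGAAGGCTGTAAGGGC
Rxra: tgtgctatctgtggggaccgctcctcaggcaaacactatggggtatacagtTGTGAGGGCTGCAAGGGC
Nr5a2: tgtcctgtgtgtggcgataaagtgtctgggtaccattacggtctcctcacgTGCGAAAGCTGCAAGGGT
Esrra: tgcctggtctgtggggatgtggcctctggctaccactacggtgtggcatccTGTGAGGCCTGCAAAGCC
The P box codons of Vdr, Nr1h4, the 3 PPAR genes and Rxra translated to the same residues, and those of Nr5a2 and of Esrra each to another set. Over the 69 bases the finger of Vdr was 78.3% identical to that of Nr1h4 and 62.3% identical to that of Rxra. The finger of Ppara was 79.7% identical to those of both Pparg and Ppard.

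The 10 genes described here fell or showed no call, and none was called higher. In the RANKL group, Vdr was lower by 2.03-fold, Ppara by 1.87-fold, Nr3c1 by 1.58-fold and Rxra by a smaller amount that depended on the settings. Nr1h4, Pparg, Ppard, Nr5a2, Esrra and Prlr did not pass the test. Thus 4 of the 10 genes were called lower and 0 were called higher at an adjusted p under 0.05 (edgeR's quasi-likelihood test), and 0 were higher at an unadjusted p under 0.05 or by DESeq2. Of all genes tested 25.9% were called, 12.4% lower and 13.6% higher. The median log2 fold change of the 10 was -0.25, against 0.00 over all genes tested. Levels are given as CPM, the counts of a gene relative to the library total, scaled by TMM factors, which correct library totals for differences in composition. Because the libraries read each transcript near its 3′ end, this CPM does not scale with transcript length. Levels are set side by side between genes on that ground only. Other differences between genes in how their reads are captured or mapped were not tested.

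**Figure D1:**
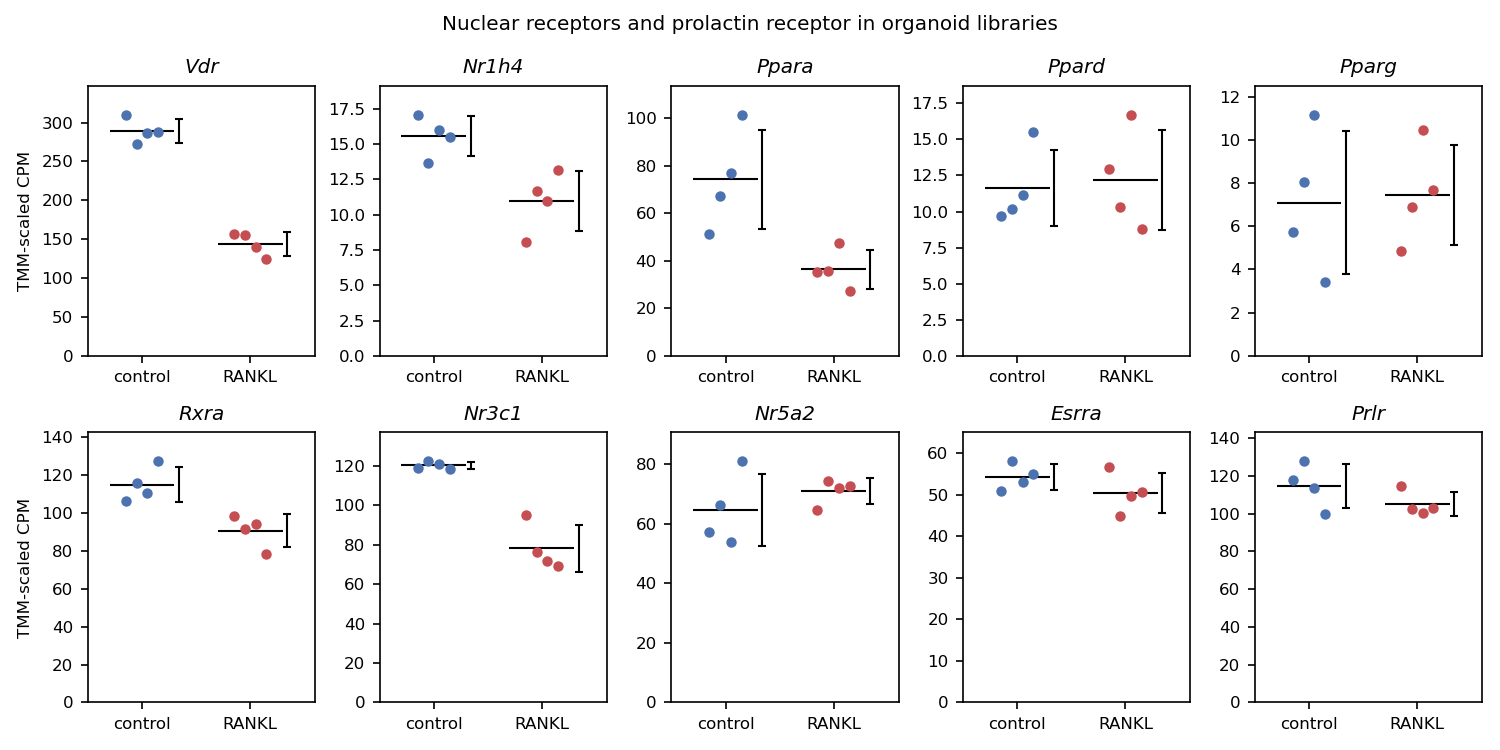
Level of each of the 10 genes in every library, in TMM-scaled CPM on an axis from 0. Points are single libraries (blue, control; red, RANKL; 4 each), horizontal bars are means and the vertical bars beside them are 1 SD. The points of Vdr, Nr1h4, Ppara, Rxra and Nr3c1 lie lower in all 4 RANKL libraries than in all 4 control libraries, and those of the other 5 genes intermingle.

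The 8 libraries differed in depth by 13.4-fold, from 583663 to 7807298 counts on genes, and the medians were 3911808 for control and 1613410 for RANKL libraries. Markers of M cells, the epithelial cells over lymphoid follicles that RANKL induces, rose in all 7 tested genes of that list, and their summed level went from 54.1 to 60.6 CPM in the control to 1876 to 2132 CPM under RANKL, while Gp2 was at 0 throughout. The enterocyte list, which checks the tissue, was present in full and its summed levels overlapped between groups, from 12289 to 16150 CPM in the control and from 11429 to 12909 CPM under RANKL. Of the 10 enterocyte markers 2 were called higher and 1 lower, of 7 stem cell markers 1 and 3, and of 6 Paneth cell markers 0 and 1. Of 7 enteroendocrine markers 2 were called higher and 0 lower. Of 7 goblet cell markers 0 and 0 were called (1 and 2 at an unadjusted p under 0.05, none by DESeq2). The 1 tuft cell marker tested did not pass. Over all genes tested 13.6% were called higher and 12.4% lower. The summed levels of the immune and endothelial lists were at most 3.95 and 3.44 CPM and that of the mesenchymal list at most 32.7 CPM, most of it Vim, with 228 control and 77 RANKL counts, which is not limited to mesenchyme. Of these lists, Dcn, Cd3e, Cd79a, Itgax, Cdh5 and Kdr were at 0. In these bulk samples fewer cells of a type and less RNA per cell cannot be told apart, and the part of these cell types in the results below was not tested.

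Of the 10 genes Vdr, a receptor that pairs with RXR, stood at the highest level and showed the largest difference. It lies on the minus strand at chr15:97854425-97910630 (GRCm38). Its level was 310, 273, 286 and 287 CPM in control replicates 1 to 4 and 157, 155, 140 and 124 CPM in RANKL replicates 1 to 4. The lowest control library was thus well above the highest RANKL library, and the libraries of a group lay close together. The mean fell from 289 ± 15.3 to 144 ± 15.1 CPM (SD, 4 libraries each), a log2 fold change of -1.02 with a standard error of 0.10 and a 95% confidence interval from -1.24 to -0.81, at an edgeR adjusted p of 5.4e-09. Behind it were 4747 control counts and 817 RANKL counts. Leaving out any 1 library kept the log2 fold change between -1.06 and -0.95, and it was called in all 16 alternative settings.

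The promoter of Vdr is shown because Vdr moved most. It is a stretch of 236 bases upstream of the RefSeq start site in GRCm38.p6, chr15:97908311-97908546, on the strand of the gene. The 14 bases between it and the start site are left out, because they lie in an annotated exon. The GENCODE model of Vdr starts further upstream, so that the stretch lies inside that model but in none of its exons. It is printed with GC boxes (GGGCGG, searched on both strands) in capitals.
Vdr promoter: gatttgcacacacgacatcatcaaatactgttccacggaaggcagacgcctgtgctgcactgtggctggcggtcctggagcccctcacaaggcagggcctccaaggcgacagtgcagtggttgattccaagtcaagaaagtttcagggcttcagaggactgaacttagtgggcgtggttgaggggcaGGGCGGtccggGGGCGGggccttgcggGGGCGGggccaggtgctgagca
Counted over the 250 bases before a start site, the promoter of Vdr held 3 GC boxes and that of Ppara held 2, and 32.7% of 32841 mouse promoters of this length held at least 1. RANK signals mainly through NF-κB, whose κB consensus was found in 7.25% of all promoters and in none of the 15 promoter entries of the 9 genes searched. The core nuclear receptor motif AGGTCA, found in 14.0% of all promoters, was in 5 of these 15 entries, belonging to Nr1h4, Pparg, Rxra and Nr5a2, and not in those of Vdr and Ppara. That these letters are not in the window says nothing of binding elsewhere.

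Ppara, which codes for the PPAR of fatty acid oxidation, lies on the same chromosome on the plus strand at chr15:85734983-85802819. It was measured at 51.3, 67.4, 77.0 and 101 CPM in the control libraries and at 35.5, 35.8, 47.5 and 27.5 CPM under RANKL. The control libraries were widely spread, with the shallowest at the top and the deepest at the bottom, but none came down to the highest RANKL library. From 74.3 ± 21.0 to 36.6 ± 8.23 CPM (SD, 4 libraries each), the log2 fold change was -0.91 with a standard error of 0.18 and an interval from -1.27 to -0.54 (edgeR adjusted p = 0.00026). When log2 depth was added as a covariate the log2 fold change was -1.17 at an adjusted p of 3.6e-05, and with each library left out it ranged from -1.10 to -0.76.

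The other PPAR genes did not pass the test. Ppard, which codes for the widely expressed PPARδ, was at 9.68, 10.2, 11.2 and 15.5 CPM in the control and at 12.9, 10.3, 16.7 and 8.79 CPM under RANKL. Pparg, which codes for the adipogenic PPARγ, was at 5.73, 8.05, 11.2 and 3.44 CPM in the control and at 4.84, 6.88, 10.4 and 7.69 CPM under RANKL. In both genes the groups overlapped. The log2 fold change was 0.19 for Ppard (interval -0.33 to 0.72, adjusted p = 0.63) and 0.05 for Pparg (interval -0.59 to 0.69, adjusted p = 0.93). These genes rested on 71 and 47 counts in the RANKL group, and the intervals do not exclude changes of moderate size in either direction. The genes lie at chr17:28232700-28301474 and chr6:115360951-115490399, both on the plus strand.

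The make-up of the PPAR family differed between the groups, given here as a description. Ppara made up 76.9, 78.7, 77.6 and 84.3% of the summed CPM of the 3 genes in the control libraries, and 66.7, 67.5, 63.6 and 62.5% under RANKL, with no overlap. The share of Ppard was 12.6 ± 1.42% in the control and 21.5 ± 2.21% under RANKL (SD, 4 libraries each), again without overlap. Shares of the same sum are not independent of each other, and the level of Ppard itself overlapped between the groups. The share of Pparg overlapped, at 8.02 ± 3.61% and 13.4 ± 3.46%. The summed level of the 3 genes also overlapped, through 1 library of each group, and ran from 66.7 to 120 CPM in the control and from 43.9 to 74.6 CPM under RANKL.

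Nr1h4, the gene of the bile acid receptor, lies at chr10:89454234-89533585 on the minus strand and was expressed at a low level. Its values were 17.1, 13.7, 15.97 and 15.5 CPM in the control and 8.07, 11.7, 10.95 and 13.2 CPM under RANKL, so that all 4 RANKL libraries lay below all 4 control libraries. The log2 fold change was -0.45 with a standard error of 0.23 and an interval from -0.92 to 0.01, and the adjusted p of 0.15 did not pass the threshold. Of the 10 genes, 5 had groups that did not overlap, as had 24.6% of all genes tested. The values rested on 257 control counts and 67 RANKL counts.

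Rxra, the gene of the shared partner RXRα, lies at chr2:27676440-27762957 on the plus strand. It was at 106, 116, 111 and 127 CPM in the control libraries and at 98.5, 91.5, 94.4 and 78.5 CPM under RANKL. The groups did not overlap, but the highest RANKL library came close to the lowest control library. From 115 ± 9.07 to 90.7 ± 8.62 CPM (SD, 4 libraries each), the log2 fold change was -0.33 with a standard error of 0.12 and an interval from -0.57 to -0.10 (edgeR adjusted p = 0.033). This call was lost with the DESeq2 Wald test (adjusted p = 0.070) and when control replicate 2 or 4 or RANKL replicate 2, 3 or 4 was left out, at adjusted p values from 0.052 to 0.16 and log2 fold changes from -0.36 to -0.26. Of the other RXR genes, named after their values were seen, Rxrb was at 79.3 ± 2.70 and 74.0 ± 6.24 CPM (SD, n = 4 each; adjusted p = 0.56), and Rxrg had 0 counts in all libraries, a count that allows (3 counts per library) up to 0.384 CPM at the greatest and 5.14 CPM at the smallest depth.

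Set against Rxra, the summed level of the described genes whose receptors dimerize with RXR was lower in each RANKL library. This holds for the sum and not for each gene in it. The summed level of Vdr, Nr1h4, Ppara, Ppard and Pparg was 3.71, 3.21, 3.63 and 3.32 times the level of Rxra in the control libraries and 2.21, 2.40, 2.39 and 2.31 times that level in the RANKL libraries. The means were 3.47 ± 0.24 and 2.33 ± 0.09 (SD, n = 4 each), and the groups did not overlap. Most of the sum was Vdr, whose own ratio to Rxra was 2.53 ± 0.29 in the control and 1.59 ± 0.08 under RANKL. These are ratios of transcript levels and do not measure dimers.

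**Figure D2:**
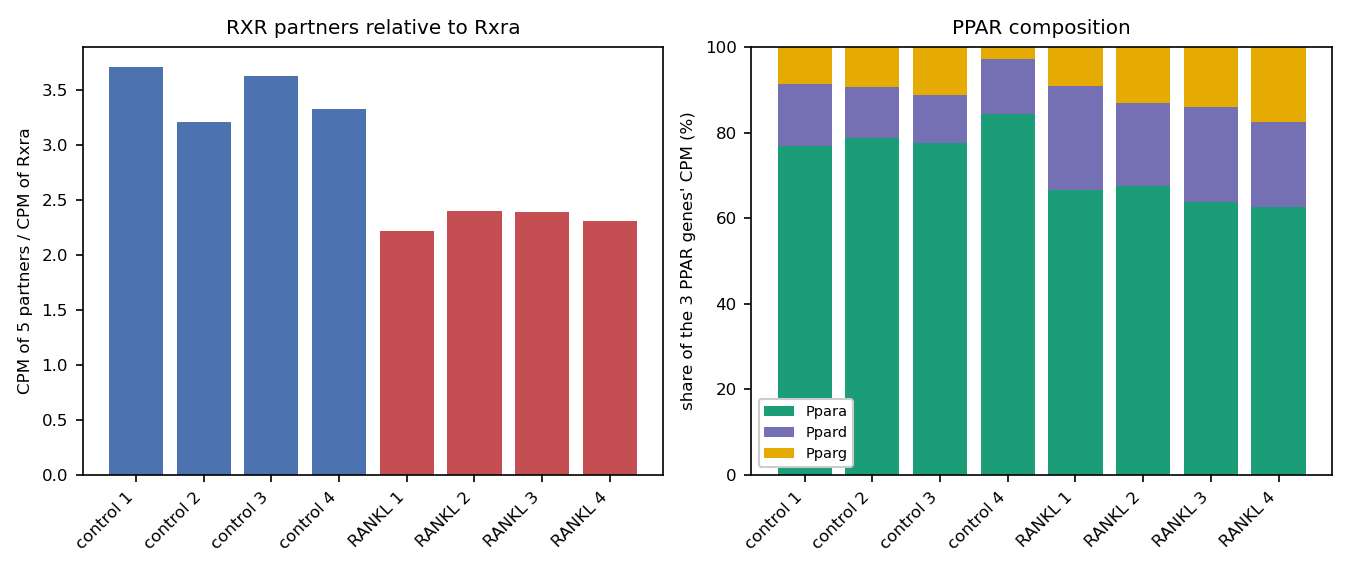
Left, the summed TMM-scaled CPM of Vdr, Nr1h4, Ppara, Ppard and Pparg divided by that of Rxra, 1 bar per library on an axis from 0 (blue, control; red, RANKL). Right, the share of Ppara (green), Ppard (purple) and Pparg (yellow) in the summed CPM of the 3 PPAR genes, in percent. All 4 RANKL bars on the left, at 2.21 to 2.40, are below the control bars, at 3.21 to 3.71, and on the right the share of Ppara is smaller in every RANKL library.

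Nr3c1, the gene of the glucocorticoid receptor, lies on chromosome 18 on the minus strand. It was at 119, 122, 121 and 119 CPM in the control libraries, the narrowest spread relative to the mean among the 10 genes, and at 95.3, 76.4, 71.97 and 69.2 CPM under RANKL. RANKL replicate 1 stood nearest to the control, and no RANKL library reached it. The mean fell from 120 ± 1.72 to 78.2 ± 11.7 CPM (SD, 4 libraries each), with a log2 fold change of -0.66, a standard error of 0.12 and an interval from -0.90 to -0.42 (edgeR adjusted p = 6.6e-05). It was called in all 16 alternative settings, with log2 fold changes of -0.73 to -0.61 as single libraries were left out. Other steroid receptor genes were at or near 0, with 31 and 11 counts per group for Nr3c2, 6 and 0 for Esr1, 1 and 0 for Esr2, and 0 throughout for Pgr, the progesterone receptor gene.

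Nr5a2 and Esrra, which code for receptors with no classical circulating ligand, did not pass the test. Nr5a2, at chr1:136842571-136960448 on the minus strand, was at 57.2, 66.3, 53.7 and 80.8 CPM in the control and at 64.6, 74.3, 71.97 and 72.5 CPM under RANKL. Esrra, at chr19:6910977-6921813 on the minus strand, was at 50.8, 58.0, 53.0 and 55.0 CPM in the control and at 56.5, 44.7, 49.5 and 50.5 CPM under RANKL. The groups overlapped in both. The log2 fold change of Nr5a2 was 0.22 (SE, 0.13, interval -0.05 to 0.49, edgeR adjusted p = 0.23), which does not exclude a moderate rise. That of Esrra was -0.12 (SE, 0.13; interval -0.39 to 0.16, adjusted p = 0.57), so that for Esrra a fall of the size seen for Vdr lies outside the interval. The exons of Esrra overlap those of Mir6990 on the same strand and of Trmt112 on the opposite strand, but the counting used the strand and Mir6990 had 0 counts.

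The prolactin receptor was expressed in all libraries at a level like that of Rxra. Prlr, at chr15:10177238-10349180 on the plus strand, was at 118, 128, 114 and 99.7 CPM in the control and at 115, 103, 101 and 103 CPM under RANKL. The groups overlapped, and the lowest of the 8 values belonged to the control. From 115 ± 11.6 to 105 ± 6.33 CPM (SD, 4 libraries each), the log2 fold change was -0.16 with a standard error of 0.11 and an interval from -0.39 to 0.06 (adjusted p = 0.30). An exon of the gene model Gm21973 overlaps Prlr on the same strand, and that model had 0 counts. In the order of the mean levels Prlr stood at place 4 of the 10 genes in the control and at place 2 in the RANKL libraries. In the control only the steps from Vdr to Nr3c1 and from Esrra to Nr1h4 separated neighbours without overlap, while Nr3c1, Rxra and Prlr, at 120, 115 and 115 CPM, were not separated. In the RANKL libraries Vdr lay above Prlr and Prlr above Rxra without overlap, and so did Nr5a2 above Esrra and Ppara above Ppard.

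Several genes of the signalling chain below the prolactin receptor were higher. Of 15 genes listed for this pathway 10 were tested, and 5 of these were called higher and 1 lower, against 13.6% and 12.4% of all genes tested; their median log2 fold change was 0.34. Jak2, the kinase bound to the receptor, was at 33.9, 30.1, 26.1 and 31.0 CPM in the control and at 45.2, 39.2, 46.4 and 49.4 CPM under RANKL, a log2 fold change of 0.58 (SE, 0.15; edgeR adjusted p = 0.0052). Stat5a, the transcription factor it phosphorylates, was at 7.38, 6.71, 4.56 and 10.3 CPM in the control and at 19.4, 16.5, 20.3 and 18.7 CPM under RANKL, a log2 fold change of 1.497 (SE, 0.25; edgeR adjusted p = 2.5e-05). Neither gene's groups overlapped. The second STAT5 gene, Stat5b, was at 9.18 ± 3.02 and 9.32 ± 3.89 CPM (SD, 4 libraries each), with a log2 fold change of 0.04 and an interval from -0.60 to 0.69 (adjusted p = 0.94).

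The feedback inhibitors Socs1 and Socs2 were both called higher. Socs2, which restrains growth hormone and prolactin signalling, was at 79.2, 84.0, 78.6 and 86.0 CPM in the control and at 171, 181, 156 and 157 CPM under RANKL, a log2 fold change of 1.03 (SE, 0.11; edgeR adjusted p = 9.0e-09). Socs1, an inhibitor of JAK kinases, was at 2.29, 0.805, 2.53 and 0 CPM in the control, on 31 counts in all, and at 27.4, 25.5, 14.1 and 23.6 CPM under RANKL, a log2 fold change of 3.50 (SE, 0.33; edgeR adjusted p = 9.7e-10). All RANKL libraries of both genes lay above all control libraries. Cish and Socs3 had too few counts to be tested. Ghr, which codes for the related growth hormone receptor, was called lower (18.5 ± 8.69 against 12.0 ± 3.61 CPM, SD, n = 4 each, log2 fold change -0.74, edgeR adjusted p = 0.032). This call was lost without control replicate 2 or 3 or RANKL replicate 1 or 4 (adjusted p from 0.067 to 0.18). It was also lost with the DESeq2 Wald test and with log2 depth as a covariate (adjusted p from 0.20 to 0.41). Prl, Prl3b1 and Prl3d1, the genes of prolactin and of placental lactogens, had 0 counts in all libraries. These genes also serve other cytokine receptors, and the part of the prolactin receptor in these changes was not tested.

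**Figure D3:**
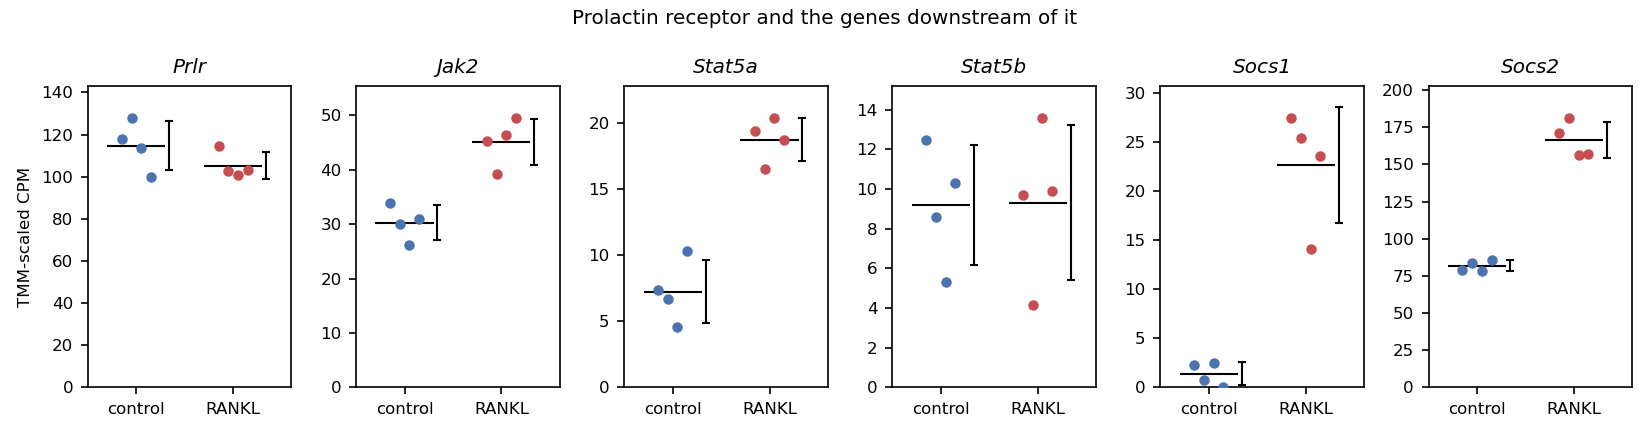
Level of Prlr and of 5 genes downstream of it in every library, in TMM-scaled CPM on axes from 0, with means (horizontal bars) and 1 SD (vertical bars) of 4 control (blue) and 4 RANKL (red) libraries. The groups overlap for Prlr and Stat5b and are apart, with RANKL higher, for Jak2, Stat5a, Socs1 and Socs2.

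Set among the whole family, the calls in the lower direction were not limited to the genes above. The genome list held 49 nuclear receptor genes, of which 30 were tested, 11 were called lower and 1 was called higher, and 6 had 0 counts in all libraries. Of the 21 tested genes that are not among the 10, 7 (33.3%) were called lower and 1 (4.76%) higher, with a median log2 fold change of -0.12. Over all genes tested 12.4% were called lower and 13.6% higher. Summed over all 49 genes, receptor transcripts took 2643 ± 91.1 CPM in the control and 2072 ± 65.6 CPM under RANKL (SD, 4 libraries each), with no overlap. Vdr alone made up 10.95 ± 0.81% of this sum in the control and 6.95 ± 0.74% under RANKL, and the shares did not overlap, so that Vdr lost a larger part of its level than the family as a whole.

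Among the other receptors, Thra, which codes for thyroid hormone receptor α, was at 299 ± 28.9 CPM in the control and 183 ± 22.6 CPM under RANKL (SD of 4 libraries; log2 fold change -0.68, adjusted p = 1.3e-05). Nr2c2, the gene of the orphan receptor TR4, was at 312 ± 47.4 and 199 ± 22.04 CPM (log2 fold change -0.64, adjusted p = 5.7e-05). The only receptor called higher was Nr2f6, which codes for the orphan receptor EAR2, at 115, 113, 97.8 and 99.7 CPM in the control and 161, 166, 149 and 158 CPM under RANKL (log2 fold change 0.56, adjusted p = 0.00019). Nr1i2, the gene of the xenobiotic receptor PXR, and Hnf4a, the gene of an enterocyte identity factor, were at 260 ± 16.01 and 141 ± 24.1 CPM in the control and 238 ± 15.97 and 122 ± 10.2 CPM under RANKL, and neither passed the test (adjusted p = 0.42 and 0.33). The highly expressed receptors thus included some that fell, some with no call and Nr2f6, which rose.

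**Figure D4:**
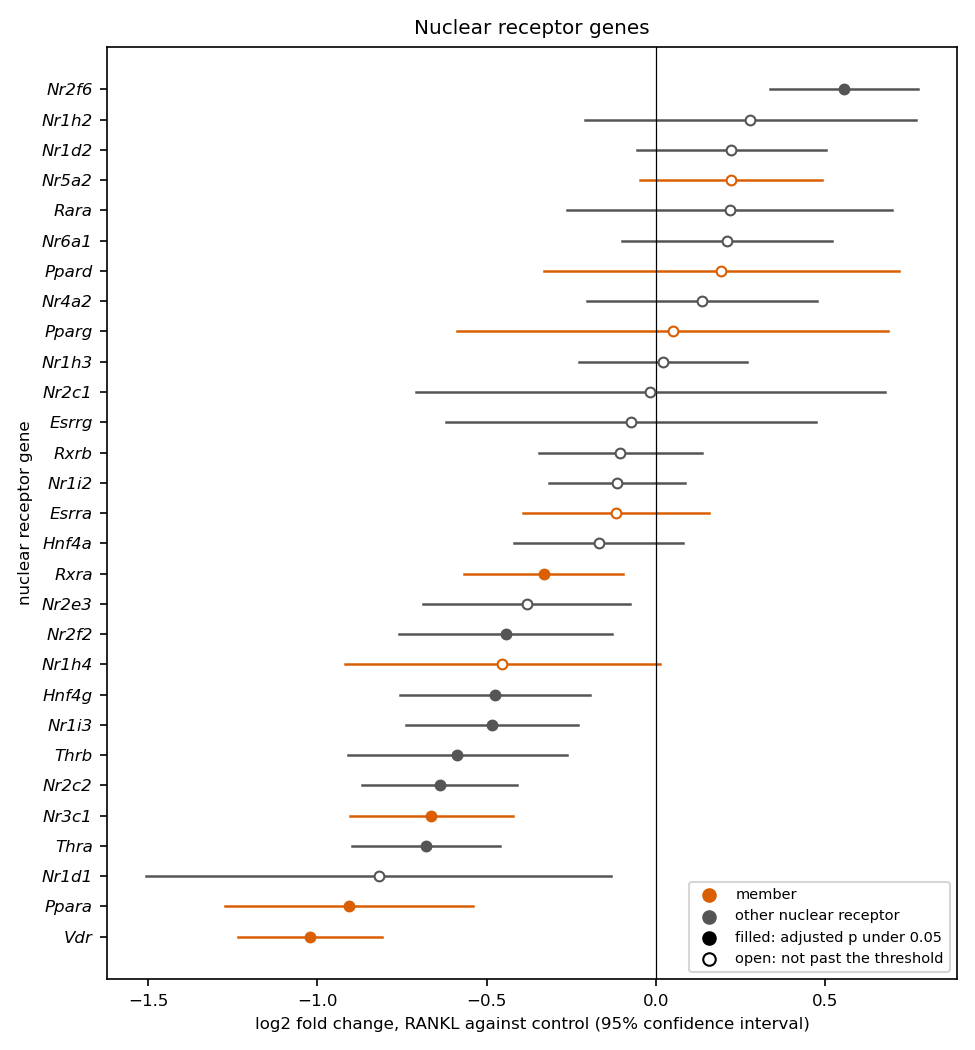
Log2 fold change of RANKL against control for 29 of the nuclear receptor genes tested, ordered by size, with 95% confidence intervals (orange, the 9 receptors described; grey, others; filled points, adjusted p under 0.05). Vdr at -1.02 and Ppara at -0.91 have the largest falls, and Nr2f6 at 0.56 is the only filled point right of 0.

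Nuclear receptors act through coregulators, proteins that carry histone modifying activity to the gene. All 20 listed coregulator genes were tested, and 5 (25%) were called lower and 1 (5%) higher, against 12.4% and 13.6% of all genes tested. Their median log2 fold change was -0.15. Ppargc1b, a coactivator of ERRα and the PPARs, fell from 132 ± 22.03 to 80.1 ± 2.67 CPM (SD of 4 libraries; log2 fold change -0.73, adjusted p = 4.0e-05). Ncoa3, a steroid receptor coactivator, rose from 20.4 ± 2.36 to 36.0 ± 2.63 CPM (log2 fold change 0.79, adjusted p = 0.00057). Pprc1, a relative of PGC-1, and Gps2, a subunit of the NCoR corepressor complex, were called lower at log2 fold changes of -0.59 and -0.52, but the call of Gps2 was lost without RANKL replicate 4 (adjusted p = 0.061) and both were lost when log2 depth was added as a covariate (adjusted p of 0.49 and 0.074).

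Known target genes of the receptors were counted beside them. The counts stand against 12.4% called lower and 13.6% called higher over all genes tested. Of 8 VDR targets 5 were tested, with 1 called higher and 2 lower (1 and 1 by DESeq2). Cldn2, a claudin that forms cation channels in the tight junction, was at 224, 188, 225 and 191 CPM in the control and 80.7, 96.4, 115 and 96.1 CPM under RANKL, a log2 fold change of -1.08 (SE, 0.12; edgeR adjusted p = 1.3e-08). S100g, the cytosolic calcium carrier calbindin-D9k, was at 304, 274, 288 and 268 CPM and at 273, 257, 285 and 315 CPM, with a log2 fold change of -0.01 (interval -0.21 to 0.19). Atp2b1, the basolateral calcium pump, rose from 494 ± 34.3 to 758 ± 23.2 CPM (SD of 4 libraries; log2 fold change 0.61, adjusted p = 5.5e-06). So the targets of VDR went in different directions. Slc30a10, a manganese exporter, was called lower at a log2 fold change of -0.55 and an edgeR adjusted p of 0.039. That call was lost without control replicate 2 or 3 or RANKL replicate 1, 2 or 4 (adjusted p from 0.054 to 0.17). It was also lost with the DESeq2 Wald test and with log2 depth as a covariate (adjusted p from 0.19 to 0.39). The calcium channel genes Trpv5 and Trpv6 had 0 counts and the vitamin D degrading enzyme gene Cyp24a1 had 1 count in the 8 libraries. S100g was named after its values were seen, as a gene that VDR classically induces in the intestine.

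The PPAR targets leaned lower than all genes tested, of which 12.4% were called lower and 13.6% higher. Of 24 listed genes 17 were tested, and 8 of them (47.1%) were called lower and 0 higher, with a median log2 fold change of -0.34. At an unadjusted p under 0.05, 9 were lower and 1 higher, and the DESeq2 test called 6 lower and 1 higher. Cpt1a, which admits long-chain fatty acids to the mitochondrion, was at 68.2, 69.8, 95.5 and 77.4 CPM in the control and 35.5, 31.0, 33.9 and 30.8 CPM under RANKL, a log2 fold change of -1.26 (SE, 0.15; edgeR adjusted p = 9.7e-08). Acaa2 and Acadm, enzymes of mitochondrial β-oxidation, fell from 263 ± 27.9 to 165 ± 17.4 CPM and from 154 ± 29.0 to 103 ± 8.32 CPM (SD of 4 libraries; log2 fold changes -0.67 and -0.56, adjusted p = 1.5e-05 and 0.0014). When log2 depth was added as a covariate 3 genes were called lower.

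Targets of the other receptors were few, and their counts stand against 12.4% called lower and 13.6% called higher over all genes tested. Of 6 FXR targets 2 were tested and 0 passed the edgeR test, also at an unadjusted p under 0.05. They include Slc51a, a subunit of the basolateral bile acid exporter named after its values were seen, at 110 ± 13.3 and 115 ± 13.6 CPM (SD, n = 4 each). Fabp6, the ileal bile acid binding protein, was too low for the filter, with 3 control and 28 RANKL counts, and was the 1 FXR target that DESeq2 called higher. Of 10 glucocorticoid targets 7 were tested, with 2 called higher and 0 lower (3 and 1 at an unadjusted p under 0.05, and 3 and 0 by DESeq2), while Nr3c1 itself was lower. These were Klf9 (6.51 ± 2.45 to 13.4 ± 3.37 CPM, log2 fold change 1.08, adjusted p = 0.0068) and Ddit4 (150 ± 29.1 to 205 ± 20.5 CPM, log2 fold change 0.46, adjusted p = 0.0061); the call of Klf9 was lost when log2 depth was added as a covariate (adjusted p = 0.13). Fkbp5 and Tsc22d3, classical glucocorticoid responses named after their values were seen, had log2 fold changes of -0.03 and -0.09 and did not pass. Of 9 Nr5a2 targets 5 were tested and 2 were called lower, Scarb1 and Abcg8, while DESeq2 called 1 lower, Scarb1. Scarb1, a lipoprotein receptor, went from 12.1 ± 2.43 to 4.22 ± 1.28 CPM (log2 fold change -1.32, edgeR adjusted p = 0.0015). Abcg8, a sterol transporter subunit, was at -0.41. Its call was lost without control replicate 3 or RANKL replicate 1, 2 or 4 (adjusted p from 0.055 to 0.080). Of 12 Esrra targets 8 were tested and 3 were called lower, namely Acadm, Gabpa at -0.79 and Idh3a at -0.39. DESeq2 called 1 of this list lower, Acadm. The call of Gabpa was lost without control replicate 2 or RANKL replicate 3 (adjusted p from 0.058 to 0.065) and that of Idh3a without control replicate 2 or RANKL replicate 1, 3 or 4 (adjusted p from 0.096 to 0.14).

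**Figure D5:**
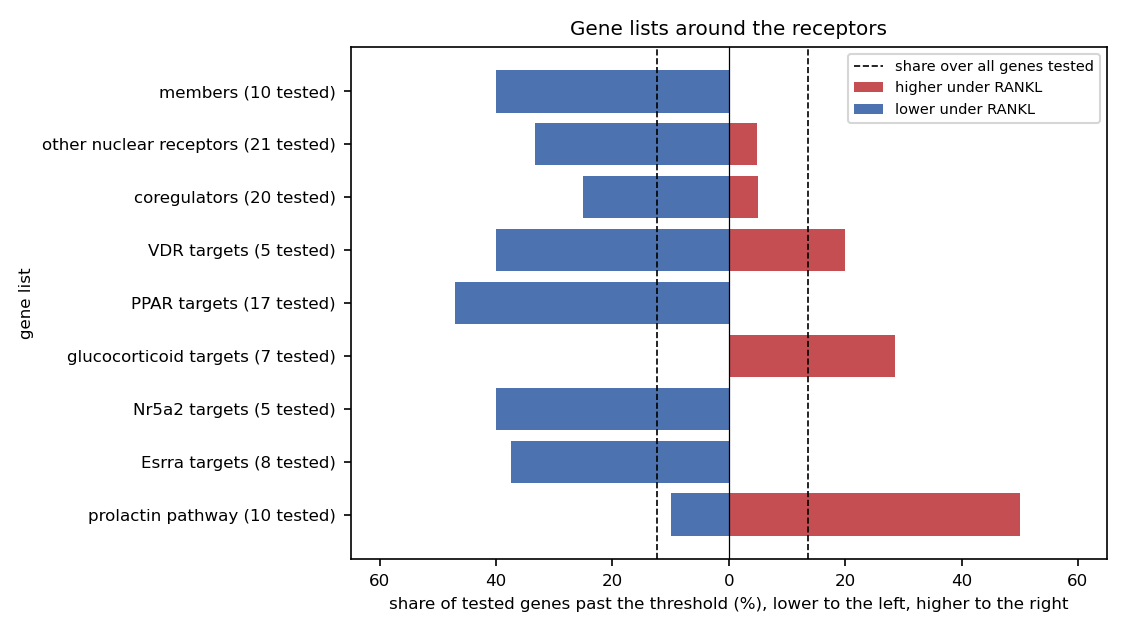
Share of the tested genes of each list called lower (blue, to the left) and higher (red, to the right) in RANKL libraries, in percent, with the number tested in brackets. Dashed lines mark the shares over all genes tested, 12.4% lower and 13.6% higher; the PPAR targets reach 47.1% lower and the prolactin pathway 50% higher.

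The genes whose levels followed each receptor most closely over the 8 libraries were named by Pearson's r of log2 CPM among 6647 genes with a mean of at least 20 CPM. All values describe these libraries, in which the 2 groups and their depths are shared by every gene. Vdr was most like Fgfbp1, Aldh1a7 and Zbtb38 (r of 0.987, 0.985 and 0.984). Ppara was most like Cd3eap, Sub1 and Osbpl6 (0.986, 0.984 and 0.980), and Osbpl6 was also among the 3 nearest to Rxra, after Mrto4 (0.970). Nr3c1 was most like Sult1b1, Atp2a2 and Ror2 (0.988, 0.985 and 0.983). For Nr5a2, Esrra and Prlr, which did not separate the groups, the nearest genes were Ube2g2 (0.937), Slc4a4 (0.946) and U2af1 (0.908).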

How the data were processed

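Total RNA of organoids, 8 samples in all, was made into QuantSeq forward libraries, which are primed on the poly(A) tail, and sequenced as single reads of 50 bases. The authors trimmed adapters and poly(A), filtered out reads of abundant sequences such as ribosomal and mitochondrial DNA, mapped to GRCm38 by STAR and assigned reads by strand to Ensembl release 94 genes by featureCounts. As deposited, the counts are whole numbers without scaling. Reads copied by PCR are not told apart from molecules, so limits for a count of 0 (3 counts) cover counting error only. Each column was tied to its sample by the sample's description label, and the groups come from the labels. Symbols came from GENCODE M21, which is on the same build but is not the release counted on.

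Counts were tested with edgeR 4.0.16 in R 4.3.3 (TMM factors, its filter on low counts, quasi-likelihood test of RANKL against control over all 8 libraries), with p-values adjusted by the Benjamini-Hochberg method for 9971 genes and called under 0.05. The standard error is the log2 fold change divided by the square root of F. Exact two-sided permutation tests used all 70 assignments of 4 against 4 libraries, whose smallest p is 0.0286. Nothing says that the libraries of a group came from separate cultures or animals, so p-values measure only the spread between these samples, which may be technical. The steps were tested on simulated data. The alternatives were other scalings, the DESeq2 1.42.0 Wald test, other filters on low counts, the replicate number as a block, log2 depth as a covariate, and each library left out. The fit without the 2 shallowest libraries was chosen after seeing the data. Summaries were made with Python 3.11.15 and pandas 2.3.3.

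The 10 genes and the lists of other receptors, coregulators, targets and markers were chosen with earlier results of these data known. Named beside the 10 were for each list, among called genes averaging 5 CPM or more, the 3 largest rises and the 3 largest falls, the 5 other nuclear receptors with the highest level, and Jak2, Stat5a and Stat5b. A few items that this rule or the lists include are not reported here. Genes named outside this rule are said to be or are given as counts only. The labels do not say whether the replicate numbers pair the libraries. Deviations of same-numbered libraries from their group means were correlated at -0.033 to 0.10, which cannot show that they are unpaired. The main fit did not pair them. Promoters came from RefSeq (GRCm38.p6), and the entries of 9 of the 10 genes were used. Nr3c1 was left out of the search. The coding sequences came from GENCODE M21.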

Additional observations from a re-analysis of the deposited data

Results flagged for a closer look

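Single libraries were compared with the other 3 of their group for the 10 receptors and the other named genes, 102 groups of values in all. A gap this large arises by chance in about 1 of 20 groups, which is 5.1 groups here, and 5 were found. None was among the 20 groups of the 10 receptors. Nr2c2 stood at 383 CPM in control replicate 3, with 291 CPM next to it, and its fall under RANKL was also called without that library. Atp2b1 stood at 793 CPM in RANKL replicate 1, with 750 CPM next. The stem cell marker Ascl2 was at 27.4 CPM in RANKL replicate 1, below 39.9 CPM. The enteroendocrine hormone genes Cck and Gip were at 84.3 CPM in control replicate 2 and at 78.9 CPM in control replicate 1, above 72.2 and 73.2 CPM.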

How the results depend on the processing

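Over 16 alternative settings the number of genes called stayed within 1.5 times the 2587 reported, from 1827 with log2 depth as a covariate to 2610 with the replicate number as a block, and was 1853 to 2601 with single libraries left out. Of the 10 receptors, 3 or 4 were called in each. The replicate block left 4 of the 10 called. Vdr, Ppara and Nr3c1 were called in all 16. Rxra lost its call in 8, also with library totals alone (adjusted p = 0.051), the DESeq2 Wald test (0.070) and without the 2 shallowest libraries (0.069). Genes that never passed the test changed sign. Pparg was at -0.0212 with the replicate block and between -0.17 and 0.32 with single libraries left out. Ppard was at -0.0183 with log2 depth as a covariate and between -0.0721 and 0.352 with single libraries left out. Stat5b was at -0.00560 without a filter on low counts and between -0.26 and 0.39 with single libraries left out. Of 42 named genes past the threshold, 27 were called in every setting that could test them and 15 were not in at least 1; the cause was not tested. The PPAR targets called lower numbered 3 with log2 depth as a covariate and 6 to 9 with single libraries left out. Depth limits what can be said of Pparg, Ppard and Nr1h4, which had 47 to 71 counts in the RANKL group. Groups and depth are partly confounded, since the RANKL libraries were mostly the shallower ones.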
